A study of Rattus norvegicus with 16 samples.

Results

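The genes described here were grouped for red cell maturation, the steps in which the erythroblast loses its nucleus and the reticulocyte sheds its organelles. They are Bnip3l, Bpgm, Trim58, Fbxo7, Xpo7, Bcl2l1, Epor and RGD1560687, chosen by symbol with earlier results of the same libraries known. All 8 were found among the 18031 entries that every file listed, and Bcl2l1 was the only one with a second entry. Blood came from 16 adult male Sprague-Dawley rats of 85 to 90 days. Each rat had received 4 saline injections of 1 ml/kg at 2 h intervals and was killed 3 h after the last. Whole blood was drawn by needle from the heart, and alpha and beta globin mRNA were depleted before polyadenylated RNA was sequenced. The labels put all 16 libraries in 1 group of saline controls, numbered 1 to 16, so no treated group was compared. The protocol text shared by the labels also names saline given in a cool or a hot environment, but it ties no library to either.

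A reticulocyte is a young red cell that has already lost its nucleus but still carries mRNA, so whole blood RNA holds a large red cell component even after globin depletion. Mature red cells have no mitochondria. Bnip3l, also called NIX, is the receptor on the outer mitochondrial membrane that marks mitochondria for removal by autophagy in reticulocytes. Bpgm makes and breaks down 2,3-bisphosphoglycerate, the metabolite that lowers the oxygen affinity of hemoglobin. Erythropoietin acts on Epor, its receptor on erythroid precursors, and Bcl2l1 encodes the anti-apoptotic protein Bcl-x that keeps these cells alive. Trim58 is a ubiquitin ligase of late erythroblasts, Fbxo7 is an F-box subunit of ubiquitin ligases, and Xpo7 is a nuclear exportin that is high in maturing erythroid cells. RGD1560687 is a locus name, and the files give no role for it.

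Libraries held 21466776 to 31189549 estimated counts. Levels are given as normalised counts, the rounded count divided by the size factor of the library, which allows a gene to be compared between libraries but not 1 gene with another, because transcript length was not taken into account. The deposited file names carry a code of unstated meaning that separates controls 1 to 3 (code A), controls 4, 5, 7, 8 and 10 (code B), controls 6 and 9 (code C), controls 11 to 14 (code D), control 15 (code E) and control 16 (code F). The labels do not say whether the codes are technical or follow the design. According to the paper, the experiment was repeated at several dates, and no label ties a code to a date. The first 3 control groups of the paper have, in order, the sizes of code A, of codes B and C together, and of codes D, E and F together. No label states that they are the same groups. A difference between codes cannot be told apart from a difference between the rats that share them, or between dates if the codes follow them. Liver markers stood out in control 2, with a summed level of 463029 normalised counts against at most 24458 elsewhere. Cardiac markers were highest in control 10 (534 against at most 91.3), and fat and thymus markers in control 12 (6624 against at most 2774, and 6070 against at most 473). Red cell genes were present in every library, the lowest level of Alas2, the erythroid enzyme that starts heme synthesis, being 136028.

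Promoter windows from RefSeq (build GRCr8, 250 bases before to 50 bases after the annotated start) were matched by symbol for 5 of the 8 genes, with 8 windows in all because Bcl2l1 has 4 starts. Bnip3l, Xpo7 and RGD1560687 were not matched. Windows were searched on both strands for the letters bound by GATA factors (AGATAA, with T also allowed at the first position and G at the last) and for the CACCC-type letters bound by factors of the Klf family (CCNCNCCC, where N is any base). A GATA match was in 4 of the 8 windows and a CACCC-type match in 7, against 30.3% and 46.3% of all 33469 windows of 300 bases. Both kinds were held by 4 of the 8 windows, those of Epor and Trim58 and 2 of Bcl2l1, and by 9.77% of all windows. These 2 Bcl2l1 windows overlap and hold the same CACCC-type match (GGGGGTGG), so the 8 windows are not independent of each other. The windows of Epor (chr8:28770273-28770572, minus strand) and Trim58 (chr10:43523154-43523453, plus strand) are shown because they hold both kinds of letters and each gene has a single start, and those of Bpgm (chr4:64107027-64107326, plus strand) and Fbxo7 (chr7:19725131-19725430, minus strand) because they hold the CACCC-type letters alone. Capitals mark the matches, read on the strand of the gene.
Epor: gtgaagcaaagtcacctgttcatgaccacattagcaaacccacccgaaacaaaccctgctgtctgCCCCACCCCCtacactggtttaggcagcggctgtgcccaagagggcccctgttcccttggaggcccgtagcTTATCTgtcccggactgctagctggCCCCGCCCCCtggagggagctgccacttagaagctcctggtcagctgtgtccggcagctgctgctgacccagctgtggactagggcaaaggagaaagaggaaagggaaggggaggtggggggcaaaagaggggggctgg
Trim58: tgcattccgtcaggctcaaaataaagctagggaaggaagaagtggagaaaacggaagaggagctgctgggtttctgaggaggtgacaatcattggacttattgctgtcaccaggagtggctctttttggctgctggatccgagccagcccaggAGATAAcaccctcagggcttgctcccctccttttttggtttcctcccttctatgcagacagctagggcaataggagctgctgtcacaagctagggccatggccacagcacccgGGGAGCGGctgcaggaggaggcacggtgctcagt
Bpgm: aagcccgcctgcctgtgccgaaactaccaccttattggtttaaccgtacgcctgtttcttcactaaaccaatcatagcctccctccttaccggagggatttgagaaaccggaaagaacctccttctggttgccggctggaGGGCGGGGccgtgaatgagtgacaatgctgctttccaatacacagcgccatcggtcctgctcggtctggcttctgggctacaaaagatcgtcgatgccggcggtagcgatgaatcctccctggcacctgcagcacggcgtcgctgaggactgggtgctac
Fbxo7: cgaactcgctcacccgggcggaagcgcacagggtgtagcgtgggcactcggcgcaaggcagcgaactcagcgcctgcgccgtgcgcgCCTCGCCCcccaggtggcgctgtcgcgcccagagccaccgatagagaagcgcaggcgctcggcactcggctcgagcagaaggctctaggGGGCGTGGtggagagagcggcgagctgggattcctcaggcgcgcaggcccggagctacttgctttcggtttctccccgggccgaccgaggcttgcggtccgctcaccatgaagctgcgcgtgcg
In Epor the GATA match, TTATCT, begins 114 bases before the start and lies between CACCC-type matches that begin 185 and 89 bases before it, each of which overlaps a second match. In Trim58 the GATA match, AGATAA, begins 97 bases before the start. Of the Bcl2l1 windows, 2 held GATA letters and 3 held CACCC-type letters, and some of these windows overlap each other. Such matches describe the letters of the window only.

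Bnip3l, the mitophagy receptor, had a mean expression of 173239 ± 79083 normalised counts (SD, n = 16), with a lowest value of 79233 in control 14, a median of 144901 and a highest value of 347218 in control 10, a 4.38-fold range. In code B its level was 170966 in control 4, 319918 in control 5, 232466 in control 7, 264526 in control 8 and 347218 in control 10. In code D it was 91180 in control 11, 134781 in control 12, 112909 in control 13 and 79233 in control 14. Every library of code B was above every library of code D, and the 3 libraries of code A, at 144387, 128572 and 145414, lay below code B and were partly within the range of code D. Control 16, the only library of code F, was at 191609.

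Bpgm, the bisphosphoglycerate enzyme, averaged 243877 ± 102905 normalised counts (SD, n = 16), from 133412 in control 11 through a median of 224669 to 544465 in control 10. Control 15, at 133584, lay next to control 11, while control 16, at 305574, was exceeded only by controls 5 and 10. Code B ranged from 262621 to 544465 and code D from 133412 to 216199, without overlap. Control 10 was far above the next library, control 5, at 359183. Together Bnip3l and Bpgm took 0.907% of all counts in control 14 (95% Wilson interval 0.903% to 0.911%) and 2.28% in control 10 (2.27% to 2.28%). These intervals cover counting error only.

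Among the ubiquitin ligase genes, Trim58 averaged 729.5 ± 381 normalised counts (SD, n = 16), with a median of 595. Its values in code B were 912 in control 4, 1108 in control 5, 1549 in control 7, 748 in control 8 and 1544 in control 10, and in code D 316 in control 11, 519 in control 12, 399.9 in control 13 and 469 in control 14. Codes B and D did not overlap, and the lowest library of code B was control 8 here rather than control 4. Fbxo7 averaged 6123 ± 2506 (SD, n = 16), from 3145 in control 9 through a median of 5301 to 12255 in control 10. Code B spanned 6013 to 12255 and code D 3676 to 5688, so the gap between them was narrow.

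Xpo7, the exportin, had the widest spread of the 8 genes. It averaged 10281 ± 7534 normalised counts (SD, n = 16), with a median of 7327 and a 21.2-fold range from 1117 in control 16 to 23693 in control 5. Code B held 10727 in control 4, 23693 in control 5, 14808 in control 7, 16040 in control 8 and 22947 in control 10, and code D held 5437 in control 11, 7495 in control 12, 5344 in control 13 and 4949 in control 14. Codes B and D did not overlap. The 2 libraries of code C lay at opposite ends, control 6 at 23054 and control 9 at 1515.

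Of the survival genes, Bcl2l1 had the narrowest spread of the 8 on this scale, with 7598 ± 2456 normalised counts (SD, n = 16), from 4541 in control 2 through a median of 7256 to 11320 in control 5. Control 1 of code A, at 8789, was well above controls 2 and 3 of the same code, at 4541 and 4788. Code B ranged from 7197 to 11320 and code D from 4730 to 6009. Epor averaged 258.6 ± 95.4 (SD, n = 16), from 139 in control 3 through a median of 239 to 429 in control 8, with control 16 second at 398. It was the only one of the 8 whose libraries of codes B (239 to 429) and D (154 to 259) overlapped, control 14 of code D lying within the lower end of code B and control 11 of code D, at 239.1, just under the lowest library of code B, control 4 at 239.3.

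RGD1560687 averaged 9694 ± 5896 normalised counts (SD, n = 16), from 3580 in control 12 through a median of 8167 to 24767 in control 10, a 6.92-fold range. In code B it was 14679 in control 4, 17797 in control 5, 10008 in control 7, 15356 in control 8 and 24767 in control 10, and in code D 4938 in control 11, 3580 in control 12, 4864 in control 13 and 5751 in control 14. Its code B and code D libraries were known to differ when it was chosen, so these values are a description.

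**Figure D1:**
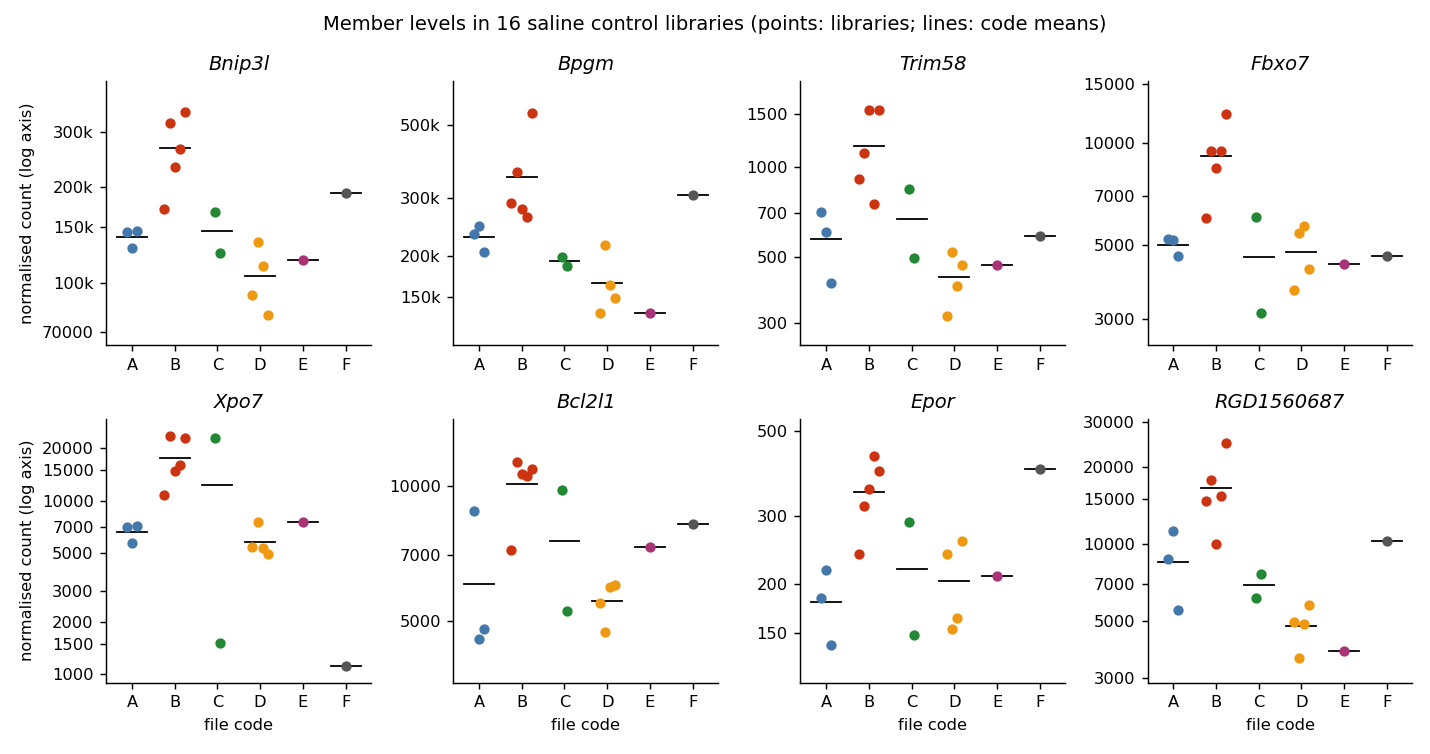
Normalised counts (log axis) of the 8 genes in the 16 saline control libraries, by file code on the horizontal axis. Each point is a library and each line the mean of a code. Code B lies above code D for every gene except Epor, where the codes overlap, and Xpo7 is lowest in 1 library of code C (control 9) and in the library of code F (control 16).

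Over the 16 libraries the coefficient of variation (SD divided by mean) was 45.6% for Bnip3l, 42.2% for Bpgm, 52.3% for Trim58, 40.9% for Fbxo7, 73.3% for Xpo7, 32.3% for Bcl2l1, 36.9% for Epor and 60.8% for RGD1560687. The median over 6139 genes whose mean equalled or exceeded that of Epor was 24.7%, and all 8 lay above it. This depended on the scaling. With counts scaled to the library total (CPM), the median over those genes was 30.6%, the median of the 8 genes 26.3%, and 3 of the 8 lay above the median. The mean log2 level of the 8 genes had r = -0.75 (rho = -0.54, n = 16) with the log2 size factor of the library and r = -0.65 without the 2 libraries farthest in size factor. These 2 measures share the size factor by construction. Its r was 0.06 with the log2 total count (rho = 0.19) and -0.02 with the percentage of counts in globin entries (rho = -0.05). In whole blood, fewer cells of a type and less RNA per cell cannot be told apart.

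Between code B and code D all 8 genes were lower in D. The fit used edgeR's quasi-likelihood test with Benjamini-Hochberg adjustment over 12952 genes on the 12 libraries of codes A, B and D. Since the genes were chosen with results of these libraries known, the calls are given as a description. RGD1560687, whose difference was known when it was chosen, is left out of these counts and had a log2 change of -1.77 ± 0.29 (SE). At an adjusted p under 0.05, 4 of the other 7 were called lower in D, the share of all genes tested being 2.26%, and 6 of the 7 had libraries that did not overlap and lay lower in D, as did 5.32% of all genes. The median log2 change of the 7 was -1.06, and that of all genes 0.04. The called genes were Xpo7 with -1.59 ± 0.26 (SE, adjusted p = 0.025), Trim58 with -1.45 ± 0.27 (0.027), Bnip3l with -1.34 ± 0.25 (0.028) and Fbxo7 with -0.93 ± 0.22 (0.049). Bpgm had a log2 change of -1.06 ± 0.26 (adjusted p = 0.058), Bcl2l1 of -0.85 ± 0.23 (0.088) and Epor of -0.75 ± 0.23 (0.13), and none of these 3 passed the threshold.

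The calls rested on the scaling and on single libraries. Dividing by the library total instead of TMM moved the median log2 change of all genes by 0.49, from 0.04 to 0.53, and 0 of the 7 were then called by edgeR, with adjusted p from 0.18 to 0.39, beside 6 of all 12952 genes. On that scale the median log2 change of the 7 was -0.50 in place of -1.06, from -1.01 for Xpo7 to -0.23 for Epor. Bnip3l changed by -0.76, and relative to the median gene by -1.29. Size factors separated the 2 codes as well, from 0.642 to 0.970 in code B and from 0.999 to 1.36 in code D, and their part in the difference was not tested. Leaving out 1 library at a time gave between 0 and 7 called of the 7, and the calls over all genes moved alike. Without control 5, 11, 13 or 14, 0 of the 7 were called by edgeR and only 2 or 3 of all genes. Without control 7, 10 or 12 it was 1 of the 7 and 95, 59 and 27 of all genes, and without control 4 it was all 7 and 5.44% of all genes, against 2.30% with every library. In these fits without 1 library the changes themselves moved less than the calls. The median log2 change of the 7 stayed between -1.20 and -0.83, and that of Bnip3l between -1.47 and -1.23. Without controls 2, 10 and 12 together, the libraries with the most liver, cardiac, fat and thymus transcripts, 0 of the 7 were called by edgeR, as was 1 of all 12935 genes tested, while the log2 changes ranged from -0.58 for Epor to -1.61 for Xpo7 (-1.36 for Bnip3l, edgeR adjusted p = 0.12). All 8 genes stayed lower in D in each of the 20 alternatives fitted.

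Code B was also higher than code A for all 8 genes, with log2 changes from 0.59 for Bpgm to 1.40 for Xpo7 and a median of 0.92 beside -0.03 over all genes. No gene passed an adjusted p under 0.05 in this comparison by edgeR (0% of all genes tested), and 7 of the 8 had an unadjusted p under 0.05, against 13.6% of all genes. The libraries of code B did not overlap those of code A and were higher for 6 of the 8, against 4.69% of all genes, the exceptions being Bcl2l1 and RGD1560687. By DESeq2, 6 of the 8 were called, beside 563 of 12640 genes in all, and by limma voom 0 of the 8. Both comparisons use the same code B libraries, so they are not separate evidence. Scaling by library total moved the median log2 change of all genes by -0.46 here, to -0.50.

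Code A and code D differed less. Log2 changes ran from -0.83 for RGD1560687 to 0.18 for Epor, with a median of -0.31, and no gene was called by edgeR (0% of all genes tested). DESeq2 and limma voom called 0 of the 8 as well, beside 14 of 12640 and 0 of 12952 genes in all. RGD1560687 alone of the 8 had an unadjusted p under 0.05, as did 5.41% of all genes. The libraries of the 2 codes overlapped for all 8 genes, and did not for 7.08% of all genes, counting both directions.

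**Figure D2:**
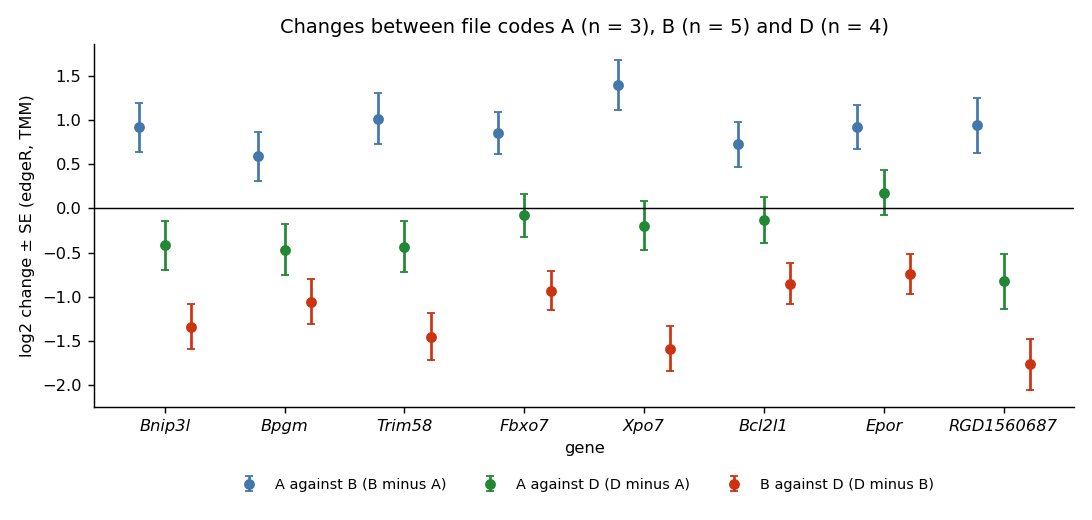
Log2 changes between file codes (vertical axis, edgeR with TMM scaling) of the 8 genes on the horizontal axis. Points are fitted changes and bars their SE, from 3 libraries of code A, 5 of code B and 4 of code D. Changes from A to B are all above 0 (0.59 to 1.40), those from B to D all below 0 (-1.77 to -0.75), and those from A to D lie nearer 0.

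The 8 genes varied together from library to library. Over the 28 pairs, the median Pearson r of log2(normalised count + 1) was 0.73 (median rho 0.70, n = 16 libraries), from 0.36 to 0.89, and 15 pairs had an r of at least 0.7. Over all pairs of the 8672 genes that averaged 100 normalised counts or more, the median r was -0.02, and 4.26% reached 0.7. Bnip3l and Bpgm formed the closest pair (r = 0.89, rho = 0.90), with an r of 0.82 without the 2 libraries farthest in Bnip3l. Bpgm and RGD1560687 (r = 0.87, rho = 0.84) and Bnip3l and Fbxo7 (r = 0.87, rho = 0.81) followed. Epor was closest to Bcl2l1 (r = 0.79, rho = 0.76) and least close to Xpo7 and Bpgm (r = 0.36 and 0.56). The libraries share their size factors and their codes, and both bore on these values. With CPM the median r of the 28 pairs was 0.48, from -0.04 to 0.83, and that of all pairs 0.38. With levels centred within codes A to D the median r of the 28 pairs was 0.44.

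**Figure D3:**
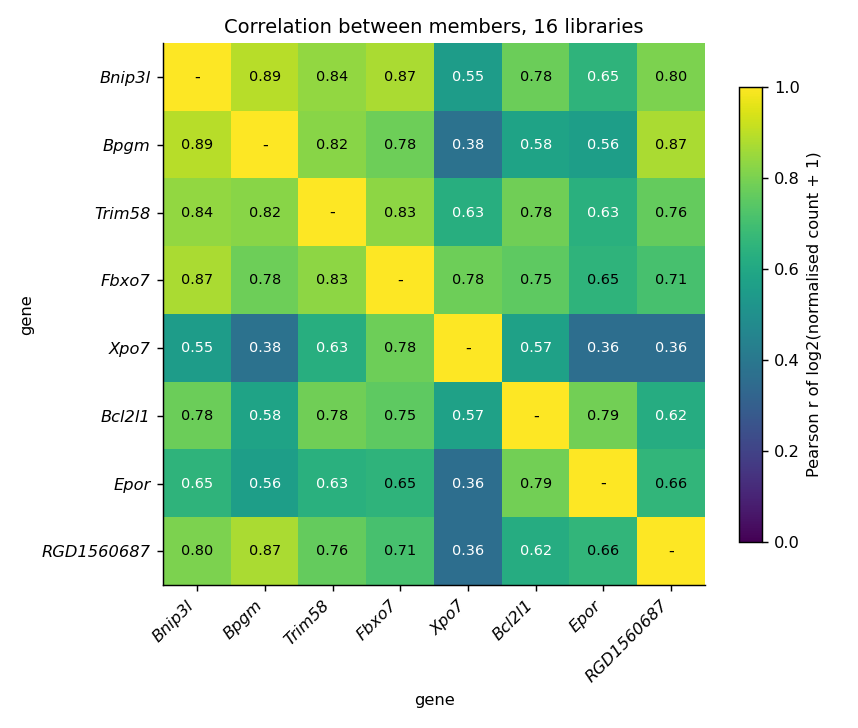
Pearson r between the log2(normalised count + 1) levels of each pair of the 8 genes (both axes) over 16 libraries, with the scale from 0 to 1 in colour. Bnip3l, Bpgm, Trim58 and Fbxo7 form the brightest block, with r from 0.78 to 0.89, and the row of Xpo7 is the darkest.

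Xpo7 went apart from the other 7 genes in 2 libraries, control 9 and control 16. It stood at 1515 and 1117 normalised counts there, and at 4949 to 23693 in the other 14. The difference between the log2 level of Xpo7 and the mean log2 level of the other 7 genes was -1.93 in control 9 and -3.03 in control 16, whereas it averaged 0.29 ± 0.46 (SD, n = 14) in the other libraries, with a range from -0.36 to 1.46. The separation was also present in CPM, at 66.0 and 38.2 against 197 to 1005. Control 9 carries code C, as does control 6, where Xpo7 was among the highest, and control 16 is alone in code F. In normalised counts none of the other 7 genes had its lowest value in control 16. There, only control 8 had a higher Epor and only controls 5 and 10 a higher Bpgm. In CPM, Fbxo7 had its 2 lowest values in controls 9 and 16, at 137 and 159, with control 11 next at 165. Epor in CPM was instead highest in control 16, at 13.6. The 7 pairs with Xpo7 had a median r of 0.55, and 0.82 without controls 9 and 16, a choice made after seeing the data. The 21 pairs without Xpo7 had a median r of 0.78.

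**Figure D4:**
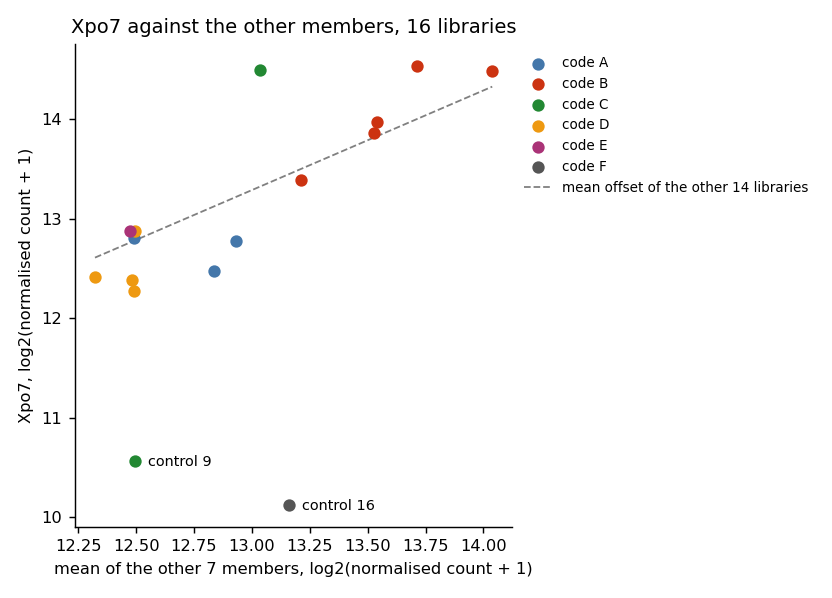
Log2(normalised count + 1) of Xpo7 (vertical axis) against the mean of the other 7 genes (horizontal axis) in the 16 libraries, coloured by file code. The dashed line is the mean offset of the other 14 libraries (0.29), and the differences from the mean of the other genes are -1.93 in control 9 and -3.03 in control 16.

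Some other genes were also lowest in these 2 libraries. Of these 8672 genes, 58 (0.669%) had their 2 lowest values in controls 9 and 16, and 12 had their 2 highest there. The 16 libraries form 120 pairs, and 1 gene in 120 would be lowest in a given pair if all pairs were equally likely. The share found was no higher, so the count of 58 does not set this pair apart. Ordered by the gap to the next library, Xpo7 was number 3 of the 58. The 2 libraries were picked because Xpo7 was low there, so its presence in this order follows from that choice. The gap was at least 1 on the log2 scale for 6 of the 58, Xpo7 included. The first was Tmcc2, at 16704 and 24605 normalised counts against at least 134703 elsewhere, and the second was Tpx2, a spindle assembly factor, at 192 and 183 against at least 826. Further down the order came the mitotic genes Hjurp (19.0 and 11.3 against at least 50.1) and Kifc1 (98.1 and 109 against at least 183), the heme synthesis enzyme Uros (46.0 and 101 against at least 197), the blood group gene Kel (6934 and 10004 against at least 17742) and Slc6a9, a glycine transporter (172 and 188 against at least 371). These genes were chosen after their values were seen. Others with a larger gap than most of them, such as Sh2d4a and Nprl3 (numbers 5 and 6), were passed over. The names therefore show no common role of the 58.

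For each of the 8 genes, the 3 genes with the most similar profile over the 16 libraries were listed, leaving out the 8 themselves. The genes nearest to Bnip3l were Alas2 (r = 0.96, rho = 0.94), Itfg1 (0.95, 0.91) and Myo5c (0.95, 0.92). Bpgm had Tmem86b (r = 0.97, rho = 0.97), Zfand2b (0.95, 0.94) and Ift46 (0.95, 0.94), and Trim58 had Dcaf8, a ubiquitin ligase adaptor (r = 0.95, rho = 0.95), Anxa7 (0.92, 0.90) and Stradb (0.92, 0.90). Nearest to Fbxo7 were Urod, an enzyme of heme synthesis (r = 0.97, rho = 0.97), the blood group gene Rhd (0.97, 0.91) and Ahsp, the chaperone of free alpha globin (0.96, 0.94). Those of Xpo7 were the glutamine transporter Slc1a5 (r = 0.97, rho = 0.91), Tmcc2 (0.97, 0.91) and Mob2 (0.96, 0.90), and each kept an r of at least 0.94 without controls 9 and 16.

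Bcl2l1 was nearest to Tinagl1 (r = 0.92, rho = 0.91), Zc3hav1 (0.92, 0.93) and Smox, spermine oxidase (0.92, 0.93). For Epor the values were lower, with Parvb (r = 0.91, rho = 0.91), the Hsp90 co-chaperone Cdc37 (0.88, 0.86) and Fam195b (0.87, 0.90). RGD1560687 was nearest to Ftl, the ferritin light chain (r = 0.95, rho = 0.97), Fntb (0.92, 0.89) and Tmem222 (0.92, 0.87). Without the 2 libraries farthest in the level of the gene concerned, the r of these pairs ran from 0.85 to 0.96.

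Gene lists around the 8 were set against their mean log2 level. Of the 8664 other genes at that mean level, 7.87% had an r of at least 0.7 with it, and the median r was -0.09. These values and the list counts below use size factor scaling, and that mean level had r = -0.75 with the log2 size factor. With CPM the median r over all pairs of genes was 0.38 in place of -0.02, and fewer list genes reached 0.7. Red cell genes were at the upper end with size factor scaling. In heme synthesis 10 of 12 genes reached 0.7 (median r 0.84), led by Urod (0.95) and the mitochondrial glycine carrier Slc25a38 (0.94). Among red cell membrane genes 14 of 15 did (median 0.79), from Rhd (0.94) and the water channel Aqp1 (0.88) down to beta spectrin, Sptb (0.68). Among erythroid transcription factors 4 of 10 did (median 0.68), Gata1 (0.92) and Klf1 (0.88) being highest and Bcl11a lowest (-0.31). In codes B and D, 8 of 12, 8 of 15 and 1 of 10 genes of these lists were called lower in D. Of all genes tested, 2.26% were called lower. In these lists 0 were called higher, against 0.0386% of all genes tested. The calls come from the same fit as those of the 8 genes. In that fit the calls over all genes fell to 2 or 3 without control 5, 11, 13 or 14. Alas2 changed by -1.44 ± 0.26 (SE), Slc4a1, the anion exchanger of the red cell membrane, by -1.43 ± 0.28, and Gata1 by -1.08 ± 0.23, with edgeR adjusted p of 0.027, 0.030 and 0.036.

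The lists closest to the roles of the 8 were mixed. In mitophagy and autophagy, the route that Bnip3l feeds, 6 of 19 genes reached an r of 0.7 (median 0.36). Map1lc3b and Gabarapl1, members of the Atg8 family that coat autophagosomes, were highest (0.90 and 0.89), and Ulk1, the kinase that starts autophagy, was lowest (-0.42). Of the 20 genes tested, 3 were called lower in D, as were 2.26% of all genes. Among the 3 were Map1lc3b with a log2 change of -1.27 ± 0.26 (SE, edgeR adjusted p = 0.033) and the entry written GABARAPL2 with -1.22 ± 0.27 (0.041). Among ubiquitin ligase subunits and erythroid ubiquitin enzymes 2 of 10 reached 0.7 (median 0.53). Psmf1, an inhibitor of the proteasome, was highest (0.86), Ube2k next (0.71) and the deubiquitinase Usp14 lowest (-0.13). Of these 10, 0 were called by edgeR, against 2.30% of all genes, so the 0 does not set the list apart.

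Around Epor, 1 of 11 genes of erythropoietin signalling reached 0.7 (median -0.14). It was the transferrin receptor Tfrc (0.71), followed by Pik3r1 (0.15), and Cish, a feedback inhibitor of cytokine receptors, was lowest (-0.45). The enzymes beside the bisphosphoglycerate shunt had a median of -0.10, and the 2 of 9 that reached 0.7 were Pklr, the pyruvate kinase of red cells and liver (0.76), and hexokinase Hk1 (0.76), whereas Pgam1 was at -0.33. In the Bcl-2 family, without Bcl2l1, Bcl2l13 alone of 7 reached 0.7 (0.87). It was called lower in D (log2 change -1.02 ± 0.22, edgeR adjusted p = 0.038), while Bcl2a1 (0.15) and Bak1 (-0.37) were apart from it. Of the other exportins, importins and Ran genes 0 of 12 reached 0.7 (median -0.02), Ran itself being highest at 0.67, above Ipo7 (0.17) and Rangap1 (-0.37).

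The globin entries had a median r of 0.52, with 2 of 7 reaching 0.7, the theta globin Hbq1b (0.89) and Hbe1 (0.77). Hba2, a target of the depletion, was lowest (0.29). Markers of other blood cells had no gene at 0.7. The median r was -0.23 for platelet markers, -0.04 for T cells, -0.24 for B cells, -0.10 for monocytes and -0.12 for neutrophils. In codes B and D, 0 of 12 platelet, 0 of 9 T-cell, 0 of 6 B-cell, 0 of 6 monocyte and 0 of 8 neutrophil markers were called by edgeR. The share of all genes called in either direction was 2.30%, so 0 calls in lists this short do not set them apart. The summed platelet level ran from 8181 to 104900 normalised counts in code B and from 27883 to 71664 in code D, and the summed neutrophil level from 61895 to 1173340 and from 155556 to 637329, so the codes overlapped. Markers of dividing cells were mixed. The 5 of 8 with a mean of at least 100 had a median r of 0.52. Of these, 2 reached 0.7, Tyms (0.85) and Mki67 (0.80), and Rrm2 was lowest (-0.10). From code B to code D the median log2 change of all 8 was 0.31, with Tyms at -1.20, Mki67 at -0.79 and Top2a, whose mean was under 100, at 1.93. None of the 8 was called by edgeR, against 2.30% of all genes.

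Other tissues were seen in some libraries. Liver markers had a median r of 0.39, from 0.22 for Apoa1 to 0.41 for Alb. Their summed level ran from 26.8 to 24458 normalised counts in code B, from 14.2 to 42.0 in code D and from 61.7 to 463029 in code A. Fat markers had a median r of 0.08 and thymus markers of 0.05, and no cardiac marker had a mean of 100. No gene of these 4 lists was at 0 in all libraries, and their part in the differences of the 8 genes was not tested beyond the fit without controls 2, 10 and 12. The lists were described by counts and medians, with no test of a list.

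**Figure D5:**
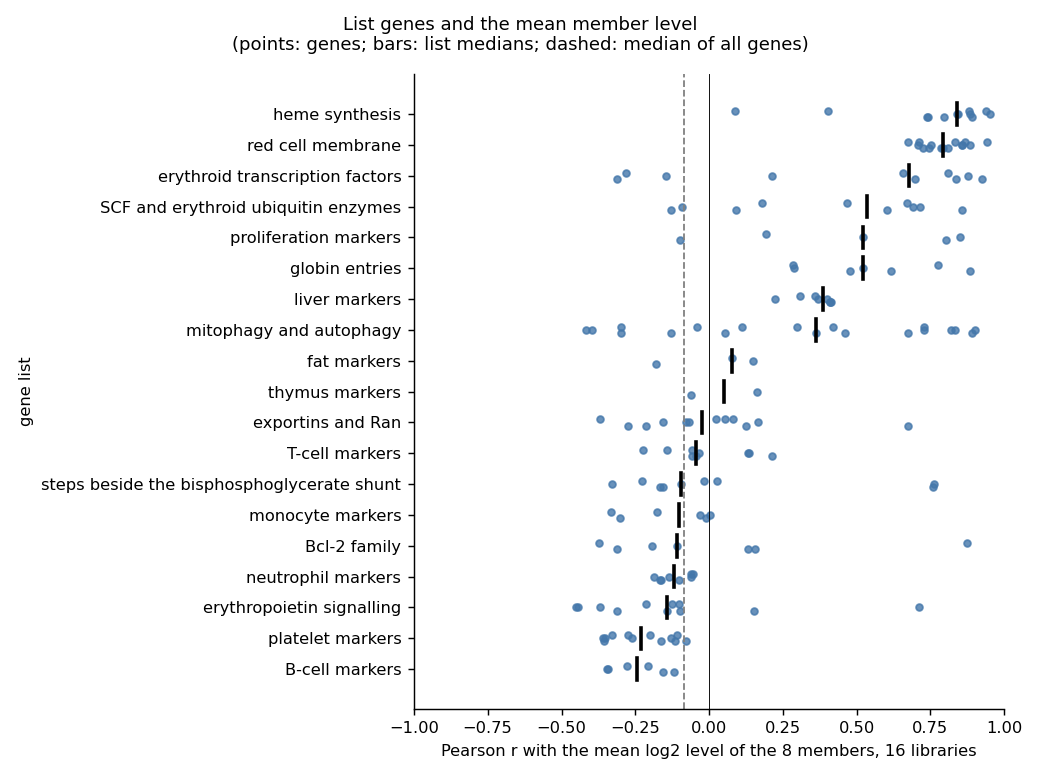
Pearson r of each list gene with a mean of at least 100 normalised counts (points) with the mean log2 level of the 8 genes over 16 libraries (horizontal axis), by gene list (vertical axis), with black bars for list medians and a dashed line for the median of all genes (-0.09). Heme synthesis, red cell membrane and erythroid transcription factors lie at the upper end, with medians of 0.84, 0.79 and 0.68, and platelet and B-cell markers at the lower end, with -0.23 and -0.24.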

How the data were processed

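Whole blood RNA of 16 saline-injected rats was sequenced as stranded paired ends. According to the submitters' processing notes and the study's methods, reads were called with CASAVA 1.8.2, trimmed, aligned with Bowtie 0.12.9 to Ensembl release 70 transcripts of rat build rn5, and summed by RSEM 1.2.0. The deposited values are the authors' expected counts per gene, which are not normalized and were rounded here. Only the 18031 genes listed in all 16 files were used. The 8 genes and all lists were chosen with earlier results of these data known. If several entries shared a symbol, the one with the highest total was taken.

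Levels are counts over DESeq2 1.42.0 size factors. Codes A, B and D, with at least 3 libraries each, were compared with edgeR 4.0.16 in R 4.3.3 (TMM, filterByExpr, quasi-likelihood F-test, Benjamini-Hochberg, adjusted p under 0.05), and limma 3.58.1 (voom) and DESeq2 were alternatives. The study used DESeq2. On simulated data for B against D (12776 genes, 200 changed) the fit recovered 19.6% of genes changed 2-fold and 75.5% of those changed 4-fold, with 5 false calls. Correlations used log2(normalised count + 1). The genes named are the 8, the 3 nearest to each by Pearson r among genes with a mean of at least 100, and for each list the 2 genes with the highest and the 1 with the lowest r with the mean of the 8, and up to 2 list genes passing the test with the largest change. A single gene that falls under this rule is not reported here. The genes named for their low values in controls 9 and 16 lie outside the rule and were chosen after their values were seen. Shares carry 95% Wilson intervals. Totals of 21466776 to 31189549 counts per library place the smallest detectable level, 3 counts, at 0.0962 to 0.14 CPM. Every pair of libraries differed by more than sampling noise (lowest chi-square per degree of freedom 48.0, over 120 pairs).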

Additional observations from a re-analysis of the deposited data

Results flagged for a closer look

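Within code B, Bcl2l1 was lowest in control 4 by a wide margin. It had 7197 normalised counts, the nearest of the others 10513, and the gap was 0.804 of the range of the code. With 16 such comparisons (8 genes in codes B and D), 0.8 would pass by chance at 1 in 20. Without control 4, all 8 genes were called in code B against code D by edgeR, and the calls over all genes went from 2.30% to 5.44%.

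Bcl2l1 has a second entry, ENSRNOG00000018503, which no comparison used. It had a mean of 60.4 normalised counts, from 24.2 to 107.8, above the limit of 3 counts in every library. It held 0.788% of the counts of both entries and had r = 0.87 (rho = 0.86, n = 16) with the entry used. Reads shared by both entries were divided by the authors' counting, so the split between them is uncertain.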

How the results depend on the processing

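For code B against code D, 5 of the 8 genes were called by edgeR, RGD1560687 included. The count was 5 with size factor scaling and with limma voom, 4 without globin entries and with no filter, 8 with DESeq2, 3 with all 16 libraries in the fit, 0 with library total scaling and 0 without controls 2, 10 and 12 together (chosen after seeing the data). Leaving out 1 library at a time gave 0 to 8. Calls over all genes ranged from 1 to 742 in these fits. Fewer libraries enter the fits that leave some out, and for the other settings the cause was not tested. For code A against code B, where 0 of the 8 and 0 of all genes were called, DESeq2 gave 6, beside 563 of 12640 genes in all. Leaving out 1 library gave 0 to 4. The 4 came without control 4, beside 506 of 12890 genes in all. For code A against code D leaving out 1 library gave 0 to 0. In code B against code D each gene stayed lower in D in all 20 alternatives, with adjusted p under 0.05 in 13 for Xpo7, 11 for Bnip3l, 11 for Trim58, 4 for Fbxo7, 3 for Bcl2l1, 2 for Bpgm and 2 for Epor. In code A against code D the sign reversed for Fbxo7 without control 11 (0.027, range without 1 library -0.18 to 0.027) and for Bcl2l1 without control 1 (0.25, range -0.30 to 0.25). With CPM the median coefficient of variation of the 8 was 26.3% in place of 43.9%, the median correlation 0.48 in place of 0.73, and list genes with r of at least 0.7 numbered 21 in place of 44. Centred within codes the median correlation was 0.44, and without 1 library at a time 0.63 to 0.77. No paired analysis was possible because all libraries form 1 group. The lowest level of the 8 genes, 139 normalised counts for Epor, was well above the 3 counts taken as the limit of detection.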
